A study of Homo sapiens with 9 samples.

Results

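The genes described here write, remove or read marks on histones and DNA: deacetylases, acetyltransferases, methyltransferases, Polycomb subunits, demethylases, enzymes of DNA methylation and the bromodomain reader BRD2. Of 54 listed genes, 53 had a probe set naming that gene alone, out of 19775 genes on the array, and all 53 were bright enough to be tested among 12678 genes. BMI1, a Polycomb subunit, was represented only by a probe set shared with the readthrough gene COMMD3-BMI1 and was not analysed here. The list was set by function, with no measured value in its rule, though earlier results of these data were known when it was proposed. It holds 12 deacetylases, 7 acetyltransferases, 13 methyltransferases, 5 measured Polycomb subunits, 9 demethylases, 6 DNA methylation enzymes and BRD2. EED, SUZ12 and CBX2 are Polycomb subunits without catalytic activity of their own, and BRD2 binds acetylated histones without modifying them.

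RNA came from PANC-1, an established human line derived from a pancreatic ductal carcinoma, so every group shares 1 genetic background. One group of 3 samples received the vehicle DMSO, and the labels give it no exposure time. Exposure to BRD7552 and time in culture can therefore not be told apart, against DMSO or between the exposure times. The other 2 groups received the small molecule BRD7552 at 5 uM, with RNA taken after 6 h or after 72 h, 3 samples each. The submitters describe that dose as the lowest with the greatest induction of PDX1, a pancreatic transcription factor. Each of the 9 samples was hybridised to 1 Affymetrix expression array. Whether the replicates came from different cultures is not in the labels, and the p-values here reflect the array-to-array spread alone, which may be technical.

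Acetyltransferases add acetyl groups to histone lysines and deacetylases remove them, and acetylated histones mark active promoters and enhancers. Histone methyltransferases and demethylases act on lysines whose methylation is read as active or repressive according to the residue, and Polycomb complexes maintain repression of developmental genes. DNMT enzymes methylate cytosines in CpG dinucleotides, and TET enzymes oxidise the methylated base towards its removal. In pancreatic lineages these systems are known for keeping genes of other cell states silent, among them transcription factor genes of the developing pancreas.

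The deposited signal is a linear array intensity, and a gene was read from its brightest probe set. Changes are on the log2 scale with the standard error (SE) of limma's fit over all 9 arrays, and a gene was called where the Benjamini-Hochberg adjusted p over 12678 genes was below 0.05. At 72 h the arrays of replicates 2 and 3 had upper quartile signals of 97.5 and 99.7, below the 112 to 119 of the other 7 arrays. Their median signals went opposite ways, 16.2 being the lowest of the 9 arrays and 18.8 the highest. The ACTB ratio of 3' to 5' probe sets was 2.07 to 2.21 at 72 h and 1.74 to 2.05 on the other arrays. Of the 53 genes, 26 had exactly equal values on 2 or more arrays, which can make the spread of a group too small. The median SD of a gene's log2 signal among 3 arrays was 0.067 with DMSO, 0.075 at 6 h and 0.13 at 72 h. Over the 53 genes it was 0.079, 0.086 and 0.11. The fit gives the 3 groups 1 shared spread for each gene. Its SE can therefore be too large for 6 h against DMSO and too small for comparisons with 72 h. Of 7 ductal markers 6 were above the filter, KRT19, KRT7, KRT8, KRT18, SOX9 and MUC1, and no endocrine or leukocyte marker was. At 72 h against DMSO 5 of these 6 were called (83.3%), beside 26.6% of all genes. The 4 keratins were lower, MUC1 was higher by 0.36 and SOX9 was not called. The summed signal of the 6 ductal markers was 34016 to 34923 with DMSO, 34346 to 34640 at 6 h and 27426 to 29216 at 72 h. Its part in the changes below was not tested. One of 4 acinar markers, 1 of 3 endothelial and 2 of 4 fibroblast markers were above the filter. These arrays measure pooled RNA, in which fewer cells of a type and less RNA per cell cannot be told apart.

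None of the 53 genes passed the test after 6 h of BRD7552, and after 72 h 2 were higher and 6 lower. Against DMSO at 72 h, KDM4A and KDM4B, histone lysine demethylases, rose, and HDAC4, KDM6A, NSD1, TET3, EED and DNMT1 fell. That is 8 of 53 genes, or 15.1%, beside 26.6% of all 12678 genes in the same comparison. The 2 higher and 6 lower genes stand beside 8.33% and 18.3% of all genes called in those directions. The changes ran from -0.45 to 0.63, no gene moved past 2-fold, and every one of the 53 intervals of 95% lay within 1 log2 unit of 0. Both were near the background, since 104 of all 12678 genes moved past 2-fold and 97.4% had intervals within 1 log2 unit. With the low upper quartile arrays, replicates 2 and 3, left out, so that replicate 1 alone stood for 72 h and was assumed to vary like the other groups, 6 of 53 genes were called, 5 higher and 1 lower: KDM4A, KDM4B, HDAC6, DNMT3A and KDM5A higher and EED lower. The split of 6 lower and 2 higher did not hold without those 2 arrays. The split over all genes in that fit is not given here, so its change cannot be called particular to these genes.

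**Figure D1:**
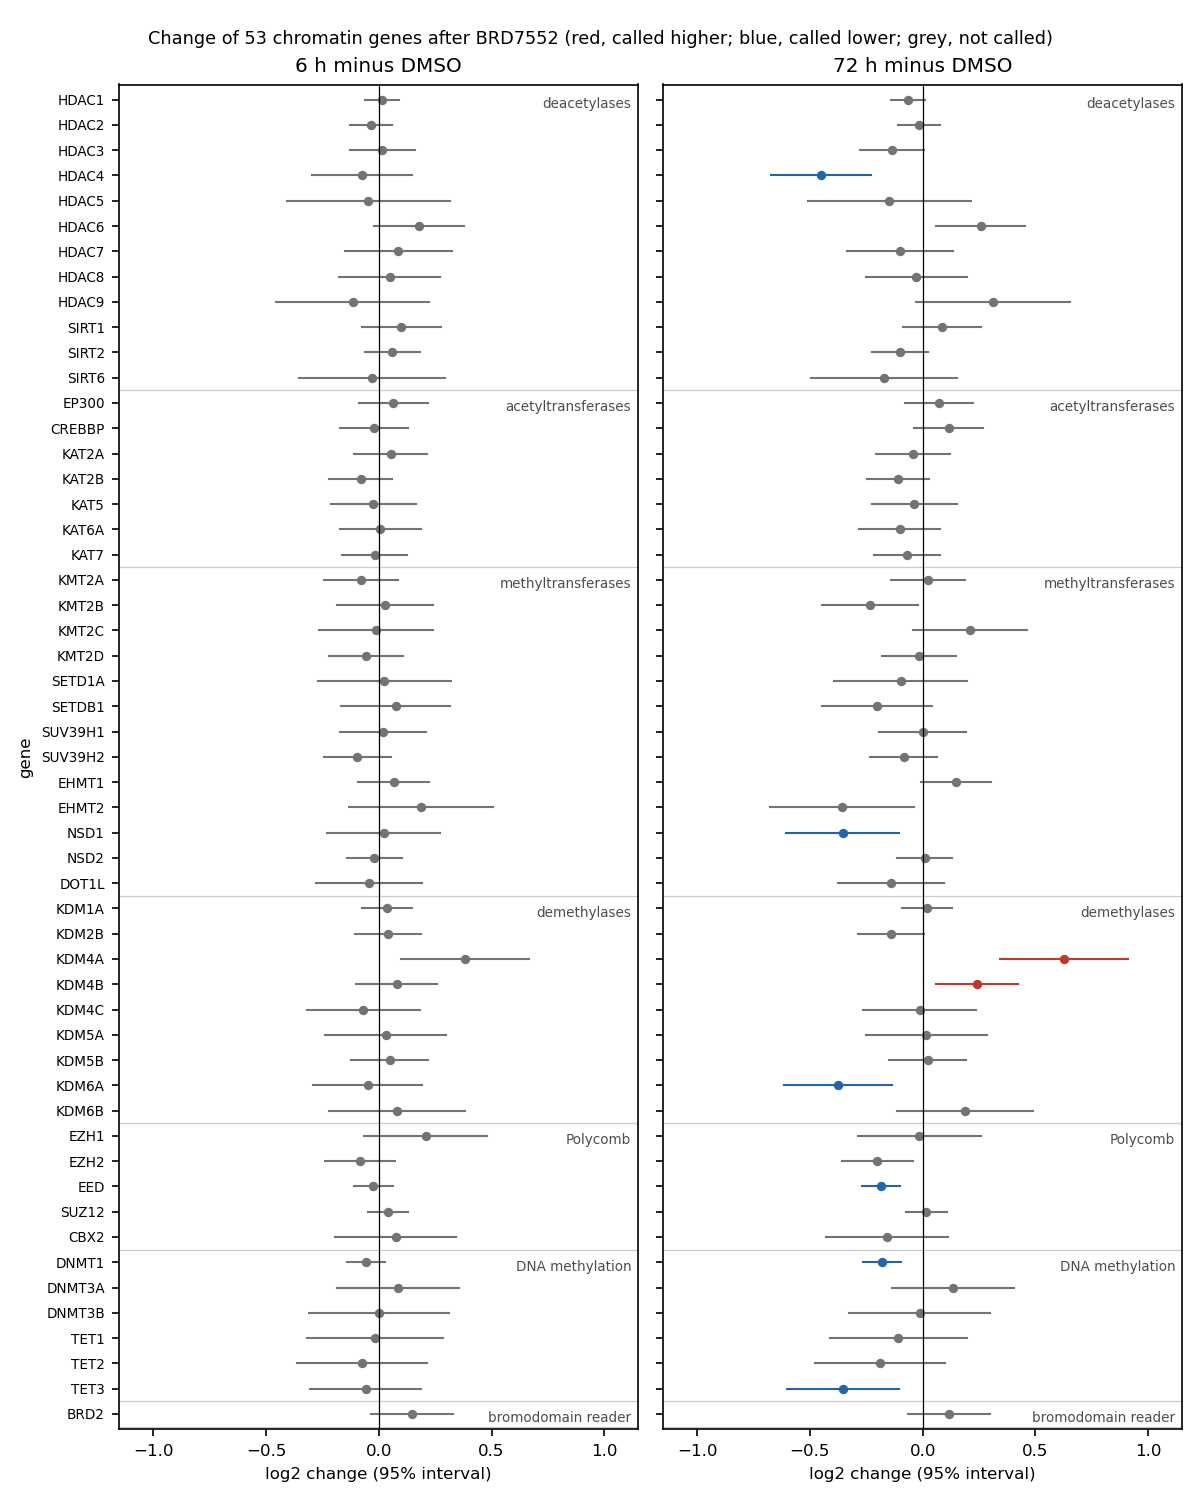
Change of each of the 53 genes in log2 signal against DMSO, at 6 h and at 72 h, ordered by class; points are limma estimates from 3 arrays a group, bars are 95% intervals, and red and blue points were called higher and lower. No point is called at 6 h, and 8 are at 72 h, from HDAC4 at -0.45 to KDM4A at 0.63.

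After 6 h, 0 of 53 genes were called by limma, where 0.473% of all genes were, and 1 of 53 had an unadjusted p below 0.05 where 4.59% of all genes did. The median change was 0.016 over the 53 genes and -0.00095 over all genes. In 51 of 53 genes the 95% interval stayed within 0.5 log2 units of 0, a share met by 90.8% of all genes, so changes larger than that were outside the intervals for most of the list. The gene with the lowest p was KDM4A, a demethylase of histone H3 lysines, at 0.38 ± 0.13 (SE, n = 3 per group), with a limma adjusted p of 0.616. HDAC6, a mainly cytoplasmic deacetylase that acts on tubulin, differed by 0.18 ± 0.093, and the Polycomb methyltransferase EZH1 by 0.21 ± 0.13, with limma adjusted p of 1.00 for both. BRD2 differed by 0.15 and DNMT1 by -0.055, the others among the 5 lowest p-values, and neither was called. For KDM4A, HDAC6, KAT2A and EHMT2 all 3 arrays at 6 h lay above all 3 with DMSO, 4 of 53 genes (7.55%) beside 12.2% of all genes.

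The 2 demethylases that rose by 72 h belong to 1 family, enzymes that remove di- and trimethyl marks from histone H3. The signal of KDM4A was 131, 117 and 119 on the DMSO arrays, 162, 179 and 141 at 6 h, and 224, 151 and 199.6 at 72 h. All 6 arrays with BRD7552 lay above the DMSO arrays, while those at 6 h and 72 h overlapped. The mean rose from 123 ± 7.51 to 192 ± 37.3 (SD, n = 3), a log2 change of 0.63 ± 0.13 or 1.54-fold, with a limma adjusted p of 0.00270. From replicate 1 alone at 72 h the rise was 0.87 (limma adjusted p = 0.00194). A second, dimmer KDM4A probe set changed by 0.20 ± 0.15 (limma adjusted p = 0.541 over all probe sets), its 72 h arrays reading 169, 106 and 160.3 against 122 to 125 with DMSO. KDM4B signal was 203, 183 and 204 with DMSO, 212, 197 and 214 at 6 h, and 249.7, 233 and 215 at 72 h. The 72 h arrays of KDM4B were the highest of the 3 groups, though the third of them was close to the 6 h arrays. Its change of 0.24 ± 0.085, or 1.18-fold, had a limma adjusted p of 0.0497, and the call was lost when any array other than replicate 3 at 72 h was left out. The related KDM4C was read at 48.9 to 50.3 with DMSO and at 48.9 on all 3 arrays at 72 h.

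KDM6A, which removes methyl groups from the histone H3 lysine that Polycomb methylates, fell. Its signal was 126, 134 and 128 with DMSO, 120.4, 132 and 123 at 6 h, and 117, 96.6 and 87.6 at 72 h. The 72 h arrays lay below all 6 others, replicate 1 by the least. The gene fell by 0.38 on the log2 scale (SE 0.11, limma adjusted p = 0.0221), and the call was lost when any of the 3 DMSO arrays, or replicate 2 or 3 at 72 h, was left out. Its paralogue KDM6B differed by less than its spread, with 91.1 to 95.4 with DMSO and 95.4, 91.8 and 138 at 72 h. KDM1A, KDM2B, KDM5A and KDM5B were not called. Over the 9 demethylases the changes ran from -0.38 to 0.63.

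Among the deacetylases 1 of 12 was called. HDAC4, a class IIa deacetylase with weak activity of its own that recruits other deacetylases to repress transcription, read 249, 267 and 245 with DMSO, 231, 238 and 253 at 6 h, and 216, 155 and 190.2 at 72 h. Every 72 h array lay below all 6 others. HDAC4 fell by 0.45 on the log2 scale (SE 0.10), from 254 ± 12.1 to 187 ± 30.5 (SD, n = 3), with a limma adjusted p of 0.00495. From replicate 1 alone at 72 h the change was -0.23 and was not called (limma adjusted p = 0.0945). A second HDAC4 probe set fell by 0.89 (limma adjusted p = 0.0285 over all probe sets) and a further one differed by -0.24. HDAC6 was at the threshold, with 129, 128 and 134 under DMSO and 168, 153 and 147 at 72 h, a change of 0.26 ± 0.093 and a limma adjusted p of 0.0532. Its dimmer probe sets differed by -0.11 and 0.020 and were not called. The class I enzymes HDAC1, HDAC2 and HDAC3, which form the catalytic core of the large corepressor complexes, were not called. HDAC1 differed by -0.064 with a 95% interval of -0.14 to 0.012. HDAC9 differed by 0.31 ± 0.16, and the sirtuins SIRT1, SIRT2 and SIRT6, which use NAD, were not called. Neither were HDAC5, HDAC7 and HDAC8, and over the 12 genes the changes ran from -0.45 to 0.31.

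None of the 7 acetyltransferases was called. EP300, whose acetylation marks active enhancers, read 264, 296 and 259 with DMSO and 293, 282 and 285 at 72 h. CREBBP, its paralogue, read 692, 824 and 755 with DMSO and 865, 793 and 797 at 72 h. In both genes the groups overlapped. Of the other 5, KAT2A, KAT2B, KAT5, KAT6A and KAT7, none passed either. Over the 7 genes the changes ran from -0.11 to 0.11, and all 7 intervals of 95% lay within 0.5 log2 units of 0, as did 71.0% over all genes.

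Among the 13 methyltransferases, NSD1 fell at 72 h. NSD1, which methylates histone H3 in transcribed regions, read 77.7, 91.4 and 86.9 with DMSO, 85.6, 91.1 and 82.8 at 6 h, and 74.3, 64.2 and 61.8 at 72 h. The 72 h arrays were the lowest, and replicate 1 came closest to the DMSO arrays. NSD1 fell by 0.36 on the log2 scale (SE 0.12, limma adjusted p = 0.0363). Its 2 other probe sets differed by 0.20 and -0.14, and the call was lost when replicate 2 or 3 of DMSO, of 6 h or of 72 h was left out. The MLL-family genes KMT2A, KMT2B, KMT2C and KMT2D, which methylate histone H3 at promoters and enhancers, were not called, and KMT2B had the lowest limma adjusted p of these at 0.0986 with a change of -0.23. DOT1L, SETD1A, SETDB1, SUV39H1, SUV39H2, EHMT1, EHMT2 and NSD2 were not called, and the 13 changes ran from -0.36 to 0.21.

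Of the 5 Polycomb subunits, EED fell and the others were not called. EED, the subunit that binds the Polycomb mark and stimulates the methyltransferase, read 1997, 1892 and 1861 with DMSO, 1843, 1892 and 1921 at 6 h, and 1681, 1710.1 and 1664 at 72 h. The 72 h arrays lay together below all others. EED fell by 0.19 on the log2 scale (SE 0.040), from 1917 ± 70.8 to 1685 ± 23.4 (SD, n = 3), with a limma adjusted p of 0.00305, and by 0.19 from replicate 1 alone at 72 h (limma adjusted p = 0.0382). The catalytic subunit EZH2 read 564, 632 and 564 with DMSO and 541, 529.7 and 463 at 72 h. EZH2 differed by -0.20 ± 0.073 with a limma adjusted p of 0.0551. SUZ12, the scaffold of the same complex, overlapped between the groups at 2113 to 2236 with DMSO and 2098 to 2259 at 72 h. EZH1 and CBX2 were not called, and the 5 changes ran from -0.20 to 0.016.

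DNMT1 and TET3 fell among the 6 DNA methylation enzymes. DNMT1, which copies methylation to newly made strands, read 2426, 2312 and 2368 with DMSO, 2321, 2321 and 2198 at 6 h, and 2154, 2065 and 2052 at 72 h. The 72 h arrays were below all others, and the 6 h arrays overlapped those of DMSO. DNMT1 fell by 0.18 on the log2 scale (SE 0.039, limma adjusted p = 0.00331), read from its 1 probe set, and from replicate 1 alone at 72 h it differed by -0.14 (limma adjusted p = 0.0967). TET3, which oxidises methylated cytosine, read 186, 236 and 176 with DMSO, 183, 201 and 186 at 6 h, and 171, 159 and 136 at 72 h. All 3 arrays at 72 h were below the DMSO arrays, by the least in replicate 1. TET3 fell by 0.35 on the log2 scale (SE 0.12, limma adjusted p = 0.0345), a call lost without replicate 2 or 3 at 72 h or replicate 1 or 2 of DMSO. The de novo methyltransferases DNMT3A and DNMT3B, TET1 and TET2 were not called, and the 6 changes ran from -0.35 to 0.13. BRD2 read 866, 892 and 961 with DMSO and 1099, 875 and 985 at 72 h, and was not called.

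**Figure D2:**
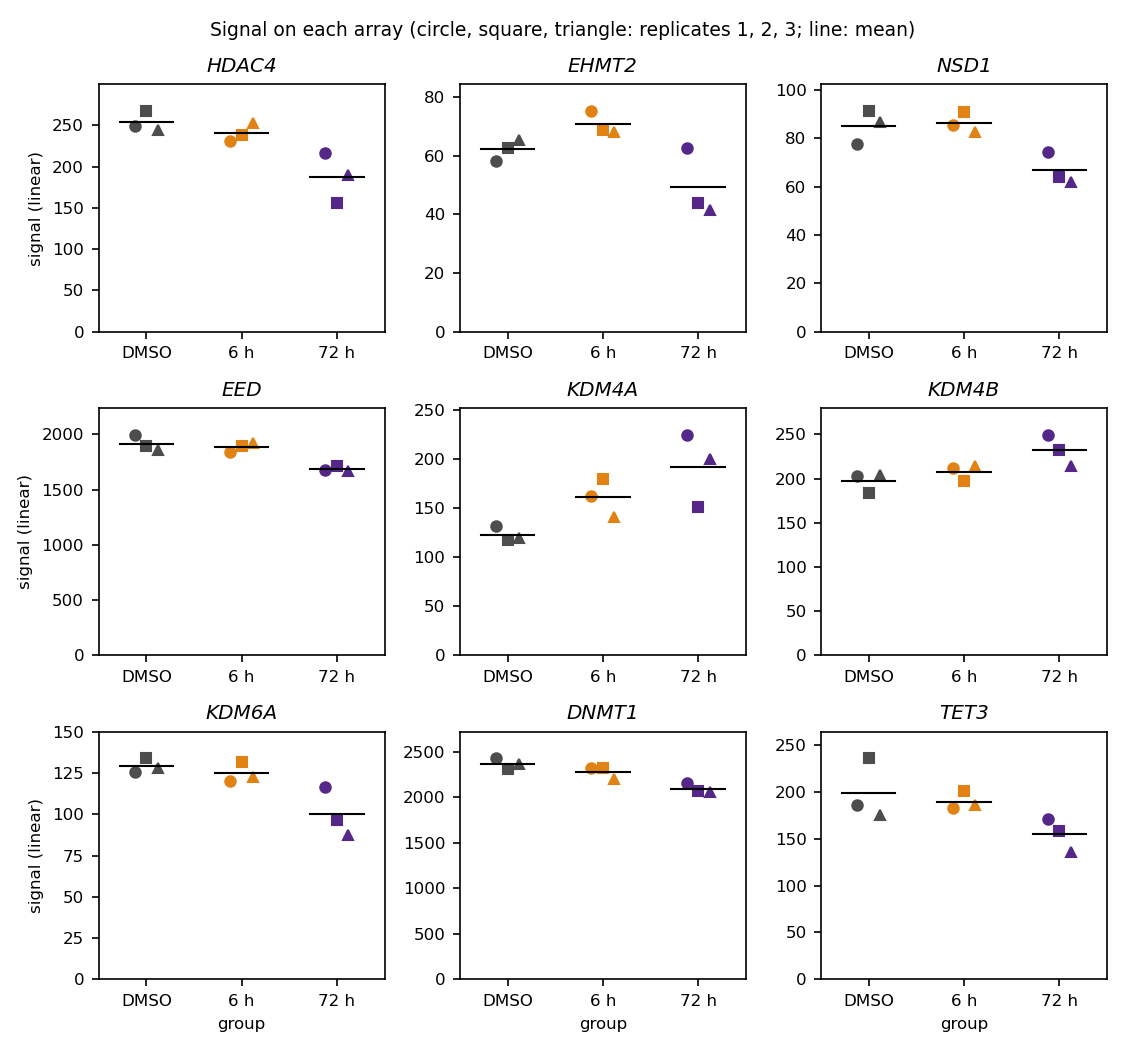
Deposited signal (linear intensity) of 9 genes on each array of DMSO, 6 h and 72 h; each marker shape is a replicate and the line is the group mean. KDM4A is higher on all 3 arrays at 72 h than on any DMSO array, and HDAC4, EED and DNMT1 are lower on all 3.

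The direction of the list as a whole depended on scaling, as did that of all genes. At 72 h 35 of 53 genes were below 0, beside 62.5% of all genes, and the median was -0.044 beside -0.062 over all genes. With median centring 27 were below 0, with quantile normalization 25 and with cyclic loess 23, beside 54.7%, 49.6% and 48.4% of all genes. The median of the 53 became -0.0057, 0.018 and 0.030, beside -0.024, 0.0016 and 0.0086 over all genes. Called genes split 6 lower and 2 higher as deposited, 1 and 1 with median centring, 5 and 5 with quantile normalization and 4 and 4 with cyclic loess. KDM4A was called higher and HDAC4 lower under all of these. EED and DNMT1 lost their calls with median centring (limma adjusted p = 0.213 and 0.204), as did KDM4B and KDM6A, and NSD1 and TET3 lost theirs under all 3 scalings. In 16 of 53 genes (30.2%) the 72 h arrays did not overlap with DMSO, beside 36.9% of all genes, with 13 lower and 3 higher. The part of the low upper quartiles at 72 h in the lower calls was not tested beyond these scalings and the arrays left out.

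Between the exposure times, 6 genes were lower at 72 h than at 6 h and 0 were higher: EHMT2, NSD1, HDAC4, KDM6A, EED and DNMT1. That is 11.3% of 53 beside 24.0% of all genes, of which 16.7% were lower and 7.28% higher, and for 15 of 53 (28.3%) the arrays did not overlap, beside 33.7% of all genes. Of all genes 62.6% were below 0 as deposited, 56.3% with median centring, 49.1% with quantile normalization and 48.1% with cyclic loess. The direction depended on scaling here too. Calls among the 53 were 2 lower and 0 higher with median centring, 4 and 3 with quantile normalization and 4 and 4 with cyclic loess. NSD1 and KDM6A lost this call under all 3 scalings, and EED and DNMT1 with median centring. This comparison and the one with DMSO share the 72 h arrays, so they are not independent. EHMT2, which methylates histone H3 in silent chromatin, read 58.3, 62.7 and 65.4 with DMSO, 75.2, 68.8 and 68.0 at 6 h, and 62.5, 43.8 and 41.6 at 72 h. It was higher on all 3 arrays at 6 h than on the DMSO arrays, and at 72 h replicates 2 and 3 were the lowest of all 9. EHMT2 fell by 0.54 between the times (SE 0.15, limma adjusted p = 0.016), while its changes against DMSO, 0.19 at 6 h and -0.36 at 72 h, were not called. From replicate 1 alone at 72 h the difference between the times was -0.17 (limma adjusted p = 0.353). The other 2 EHMT2 probe sets differed between the times by -0.11 and -0.016, and neither was called. HDAC4 fell by 0.37 from 6 h to 72 h (limma adjusted p = 0.0166), NSD1 by 0.38 (0.0304), KDM6A by 0.33 (0.0471), EED by 0.16 (0.00857) and DNMT1 by 0.13 (0.0315). Of these 6, only the EED difference was called without each array in turn. Without replicate 2 at 72 h the other 5 were not called, and without replicate 3 at 72 h EHMT2, NSD1, KDM6A and DNMT1 were not. Leaving out an array at 6 h ended the call of HDAC4 (replicate 3), EHMT2 (replicate 1), DNMT1 (replicate 1 or 2), NSD1 and KDM6A (any). Leaving out a DMSO array ended that of NSD1 (replicate 3) and KDM6A (any). With replicate 1 as the only 72 h array none of the 6 was called, and 1 of 53 genes, KDM4A, was called higher.

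The 53 genes have 160 probe sets, 120 of them above the filter, and KMT2A has the most at 11. With all 54675 probe sets tested, 8 of 160 were called at 72 h beside 7.43% of all probe sets, 7 lower and 1 higher, in 7 genes. These are not the 8 calls of the gene fit. The 7 lower were 2 of HDAC4 and 1 each of EED, DNMT1, CREBBP, DNMT3A and KAT6A. None of KDM6A, NSD1 or TET3 was among those lower. At 6 h 0 of 160 were called by limma beside 0.0732%, 2 with an unadjusted p below 0.05, and 72 h against 6 h gave 4, all lower, beside 6.42%. Those 4 were of CREBBP, DNMT3A, EED and EHMT2, and no probe set of HDAC4 or DNMT1 was called there. No gene had probe sets called in both directions. At 72 h, 15 of 32 genes with at least 2 probe sets above the filter had changes of both signs. With the mean of a gene's probe sets in place of the brightest, 3 of 50 genes were called at 72 h and EED, KDM6A, NSD1, TET3 and KDM4B were not among them. A dimmer probe set of DNMT3A fell by 0.66 (limma adjusted p = 0.00648), with 44.6, 38.6 and 46.5 under DMSO and 29.7, 25.5 and 26.6 at 72 h, while its brightest probe set differed by 0.13. A dimmer KAT6A probe set fell by 0.44 (limma adjusted p = 0.0140), while its brightest differed by -0.10. A faint CREBBP probe set was called lower (limma adjusted p = 0.0391), but its 72 h arrays read 17.1, 10.4 and 15.2, all below the filter of 17.8, so no size of change is given, and the brightest CREBBP probe set differed by 0.11. These probe sets were singled out after their values were seen. Where in the transcript each lies was not used here.

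**Figure D3:**
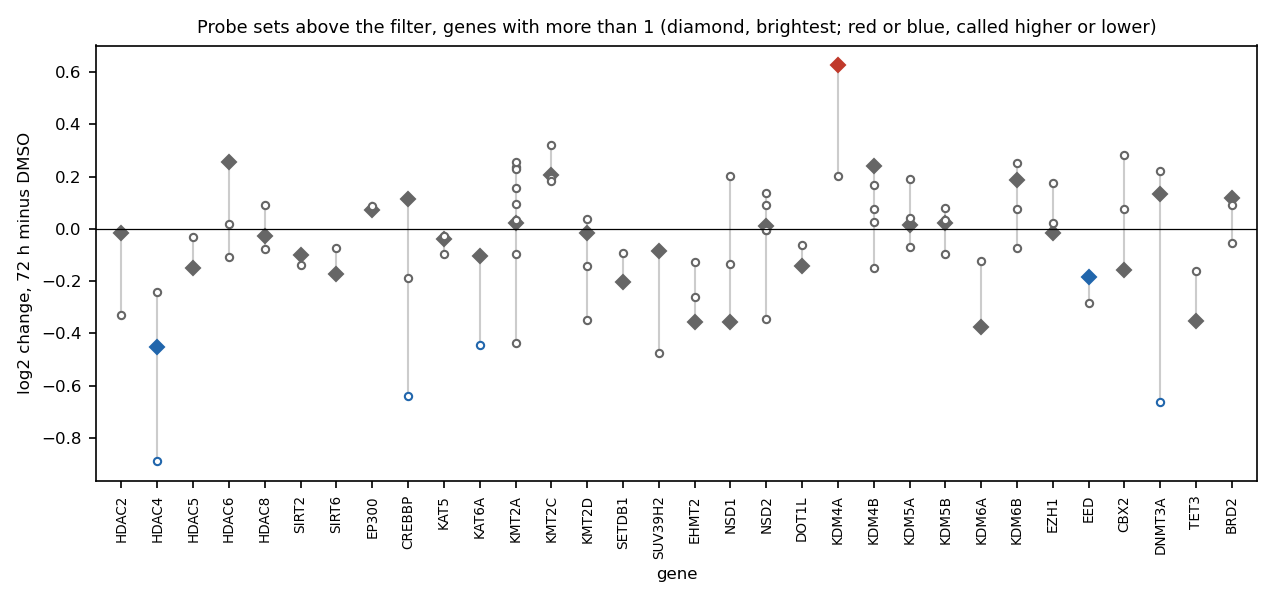
Log2 change at 72 h against DMSO for every probe set above the filter, for the 32 genes with more than 1; the diamond is the brightest probe set. Probe sets of a gene lay a median of 0.257 log2 units apart, and 15 of the 32 genes have probe sets on both sides of 0.

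Further chromatin genes showed calls in both directions. Of 111 listed, 97 were measured, and at 72 h 25 were called, 16 lower and 9 higher, a share of 25.8% beside 26.6% of all genes. IDH1, which makes the cofactor of TET enzymes and demethylases, rose by 0.66, the demethylase KDM7A by 0.53, the sirtuin SIRT7 by 0.31 and KMT2E, listed with the methyltransferases, by 0.27. The Polycomb subunits PCGF5, PHC1 and PCGF6 fell by 0.58, 0.33 and 0.32, the demethylase PHF8 by 0.42, and UHRF1, which brings DNMT1 to newly made DNA, by 0.34, as did its paralogue UHRF2. Lower too were CHD4, a remodeller of deacetylase complexes (-0.29), BRPF1 and BRPF3, scaffolds of acetyltransferase complexes (-0.29 each), the methyltransferases CARM1 (-0.31) and SMYD2 (-0.30), the demethylase PHF2 (-0.26) and the reader TRIM24 (-0.31). At 6 h IDH1 was the 1 gene of 97 called, with a change of 0.29 and a limma adjusted p of 0.0482. DNMT1, EZH2 and UHRF1 are known as genes of dividing cells. Among 19 proliferation genes 10 (52.6%) were called at 72 h beside 26.6% of all genes, and 2 with median centring. MCM2 to MCM7, E2F1 and CCNE2 fell, and AURKA and TOP2A rose. The summed signal of the 19 was 41386 to 43229 with DMSO and 41703 to 42449 at 72 h, ranges that overlapped. Rises and falls can cancel in such a sum. The part of these genes in the changes of DNMT1 and EED was not tested.

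Promoters are shown for all 5 genes called at 72 h that have 1 window in the promoter table, 2 called higher and 3 lower. The windows of 300 bases, 250 before and 50 after the start, are from RefSeq on GRCh38.p14, and capitals mark CCAAT on either strand, the box bound by NF-Y. The window of KDM4A is chr1:43649899-43650198 on the plus strand, that of KDM4B is chr19:4968863-4969162 on the plus strand, that of KDM6A is chrX:44872938-44873237 on the plus strand, that of EED is chr11:86244503-86244802 on the plus strand and that of DNMT1 is chr19:10194904-10195203 on the minus strand.
KDM4A: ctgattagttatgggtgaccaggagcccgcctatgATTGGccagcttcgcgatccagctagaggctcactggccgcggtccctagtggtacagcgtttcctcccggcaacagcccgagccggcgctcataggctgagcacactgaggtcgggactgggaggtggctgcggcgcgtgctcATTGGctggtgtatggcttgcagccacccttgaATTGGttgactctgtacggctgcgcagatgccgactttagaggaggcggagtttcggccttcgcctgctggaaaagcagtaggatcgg
KDM4B: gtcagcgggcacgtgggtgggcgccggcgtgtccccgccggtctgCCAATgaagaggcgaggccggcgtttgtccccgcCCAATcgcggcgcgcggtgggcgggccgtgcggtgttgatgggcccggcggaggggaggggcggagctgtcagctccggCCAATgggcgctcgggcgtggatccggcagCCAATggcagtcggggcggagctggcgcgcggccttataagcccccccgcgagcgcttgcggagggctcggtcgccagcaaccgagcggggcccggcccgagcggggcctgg
KDM6A: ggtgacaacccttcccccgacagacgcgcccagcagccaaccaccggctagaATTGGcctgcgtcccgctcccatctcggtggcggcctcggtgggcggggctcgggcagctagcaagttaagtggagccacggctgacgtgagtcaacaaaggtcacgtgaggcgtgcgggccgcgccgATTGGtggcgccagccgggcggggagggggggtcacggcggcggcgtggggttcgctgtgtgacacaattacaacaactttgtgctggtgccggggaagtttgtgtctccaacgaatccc
EED: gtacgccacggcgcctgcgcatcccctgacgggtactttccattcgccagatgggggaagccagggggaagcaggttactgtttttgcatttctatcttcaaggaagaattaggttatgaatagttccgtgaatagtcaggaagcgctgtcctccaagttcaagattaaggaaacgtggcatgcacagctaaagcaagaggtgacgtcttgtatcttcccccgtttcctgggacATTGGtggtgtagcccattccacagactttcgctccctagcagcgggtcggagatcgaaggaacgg
DNMT1: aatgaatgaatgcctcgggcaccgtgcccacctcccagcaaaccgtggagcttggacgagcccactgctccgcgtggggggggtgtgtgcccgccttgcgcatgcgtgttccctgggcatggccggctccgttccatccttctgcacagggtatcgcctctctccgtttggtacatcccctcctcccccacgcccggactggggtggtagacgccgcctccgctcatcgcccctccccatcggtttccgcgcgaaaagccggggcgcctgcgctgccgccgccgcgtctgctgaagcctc
The box occurs 3 times in the window of KDM4A, 4 in that of KDM4B, 2 in that of KDM6A, 1 in that of EED and 0 in that of DNMT1. Of the called genes with several windows, all called lower, NSD1 and TET3 held the box and HDAC4 did not. Any relation of the box to the direction of a change was not tested. Over 86 windows of 50 of the 53 genes, 24 (27.9%) held CCAAT beside 34.6% of all 35116 windows. The E2F core TTCCCGC was in 11 of 86 (12.8%) beside 6.55%, and TTGGCGC in 2 beside 3.04%. TTTGAA, a cell cycle element core, was in 8 (9.30%) beside 15.2%, and the ATF4 core TGATGCA in 0 beside 2.63%, all on both strands. The windows had a median GC content of 67.2% beside 58.7% for all windows, and the 5 shown ran from 52.3% for EED to 76.7% for KDM4B. A match of letters is a description and shows no binding.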

How the data were processed

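The authors deposited linear probe set intensity for 9 arrays. MAS5 was used per the submitters' processing notes, and no later step is recorded there. For 59.2% of probe sets at least 2 arrays held the same value, which is unusual for MAS5, so the summary method is uncertain, and ties can make a gene's spread too small. Symbols were taken from the platform annotation; probe sets naming several genes were left out.

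Values were log2 transformed without further scaling or a pseudocount. The brightest probe set stood for each gene, and genes below the median probe set (log2 4.15) were left out. limma 3.58.1 in R 4.3.3 fitted the 3 groups of 9 arrays with a mean-dependent prior, and p-values were Benjamini-Hochberg adjusted over 12678 genes; all probe sets were fitted in the same way. The fit was tested on simulated data. Named with values are all called genes of the 53, the 5 lowest p-values at 6 h, genes whose probe sets disagree, and up to 3 called genes by size in each further list; others named are class examples. The 21 alternatives covered scaling, filters, probe set choice, the model and arrays left out. The genes and lists were chosen with earlier results of these data known.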

Additional observations from a re-analysis of the deposited data

Results flagged for a closer look

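For 6 genes the signal after 72 h of BRD7552 differed from that after 6 h, tested with limma as 72 h minus 6 h. They are 11.3% of the 53 genes, a smaller share than the 24.0% called among all 12678 genes. Of all genes 16.7% were called lower and 7.28% higher. Length of exposure and time in culture cannot be told apart in this comparison. The difference was -0.54 for EHMT2 (limma adjusted p = 0.016), -0.38 for NSD1 (0.0304), -0.37 for HDAC4 (0.0166), -0.33 for KDM6A (0.0471), -0.16 for EED (0.00857) and -0.13 for DNMT1 (0.0315). All 6 were lower at the later time as deposited, where replicates 2 and 3 had low upper quartile signals. NSD1 and KDM6A were not called under median centring, quantile normalization or cyclic loess, nor were EED and DNMT1 under median centring. Under these scalings in turn the 53 genes gave 2 lower and 0 higher, 4 and 3, and 4 and 4. Only the EED difference was called without each array in turn.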

How the results depend on the processing

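Named values were recomputed under 21 alternatives, 2 of them chosen after seeing the data. Of 395 such values, 285 kept their side of the threshold, 109 lost their call, 1 gained it and 0 reversed direction. The 285 include values of the 5 genes named at 6 h, which had no call to lose. All 109 losses were among the calls at 72 h, against DMSO or against 6 h. For the 53 genes, calls at 6 h were 0, and 1 with array weights (KDM4A, limma adjusted p = 0.0379). Calls at 72 h against DMSO were 8, with 2 under median centring, 5 with no filter, 3 with the mean of probe sets, 4 with 2 groups only, and 4 to 10 with 1 array left out. Against 6 h they were 6, with 2 under median centring, 3 with the mean of probe sets, 3 with no trend, 3 with 2 groups only, 1 with only the 72 h array of replicate 1, and 2 to 11 with 1 array left out. KDM4A was called at 72 h under all 21 alternatives, HDAC4 under 20, EED and DNMT1 under 19, KDM6A under 12, TET3 under 8 and KDM4B under 5, and NSD1 under 6 of the 20 that measured it. Over all genes, calls at 6 h were 60, with 37 under median centring, 23 with the mean of probe sets, 23 with no trend, 211 with array weights, and 28 to 71 with 1 array left out. At 72 h against DMSO they were 3378, with 2086 under median centring and 2294 to 4224 with 1 array left out. Against 6 h they were 3037, with 1782 under median centring, 1875 with only the 72 h array of replicate 1, and 2125 to 4000 with 1 array left out. The other chromatin genes had 25 calls at 72 h, with 9 under median centring and 16 with only the 72 h array of replicate 1, and 16 to 32 with 1 array left out. The proliferation genes had 10, with 2 under median centring and 5 with no trend, and 4 to 11 with 1 array left out. The cause of these shifts was not tested. Deviations of arrays with the same replicate number correlated at -0.26 to 0.20, and those with unlike numbers at -0.32 to 0.36. With so few arrays this does not settle whether the numbers pair them. With the replicate number as a block, 0, 6 and 5 of the 53 genes were called at 6 h, at 72 h and between the times. The number of arrays limits the precision.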
